A study of Homo sapiens with 2 samples.

Results

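The signals of 10 genes encoding tetraspanins were compared between A549 cells with and without TGF-β. The genes were TSPAN1, TSPAN2, TSPAN3, TSPAN8, TSPAN13, CD9, CD63, CD81, CD82 and CD151. They were chosen by gene symbol, with every probe set annotated to that symbol alone, which gave 10 of 19775 genes and 19 of 54613 probe sets. A549 cells are epithelial and derive from a human lung tumour. The control was 1 array of A549 cells without TGF-β, and it was compared with 1 array of A549 cells exposed for 12 h to TGF-β at 1 ng/ml. No other agent or genetic change was named for either group. With 1 array per condition there are no replicates, so differences are described by size alone without p-values, and the precision is limited by the 2 arrays.

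Tetraspanins are small proteins with several membrane-spanning segments, short tails in the cytosol and a large outer loop held together by disulfide bonds. They carry no enzyme activity of their own. They gather integrins, immunoglobulin-domain proteins, growth factor precursors and proteases into patches of the plasma membrane and of endosomes, and several of them, CD9, CD63 and CD81 among them, are widely used as markers of extracellular vesicles. In epithelial cells they are known for their part in adhesion to the basement membrane, cell spreading and the sorting of membrane cargo.

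Signals are intensities from MAS5, the Affymetrix algorithm that combines the probes of a probe set into 1 value, and folds are given as TGF-β over control unless the text says lower, when they are inverted. Background was the highest signal among 27 probe sets for Bacillus subtilis transcripts, 45.8 for control cells and 56.6 for treated cells. A probe set was kept when its mean signal reached 48.7, the median over probe sets, and the brightest such probe set stood for its gene. Genes were called higher or lower at 2-fold or more, without any test. Epithelial character was clear, since 8 of 8 epithelial markers were above background on both arrays, compared with 0 of 7 fibroblast, 1 of 6 endothelial and 2 of 6 measured leukocyte markers. Of these 8 epithelial markers only CDH1, which encodes E-cadherin, differed by at least 2-fold. It was 2.31-fold lower with TGF-β, and 2.96% of all kept genes were at least 2-fold lower. By sign, 4 of the 8 markers were higher and 4 were lower. At 1.5-fold, a threshold added after the values were seen, 1 was higher, KRT7 at 1.55-fold. At that threshold 3 were lower: CDH1, ELF3 at 1.73-fold on its brightest probe set, and KRT19 at 1.51-fold. Over all kept genes 9.16% were higher and 9.08% lower at 1.5-fold. The other ELF3 probe sets were 2.04-fold and 1.92-fold lower. The leukocyte markers above background were CD14, at 190 in control cells and 63.0 with TGF-β, and CD3E, at 48.8 and 74.8, and their part in the results was not tested. In RNA from a whole culture, fewer cells expressing a gene and less RNA per cell cannot be told apart.

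Of the 10 tetraspanins 8 were kept, and among these only TSPAN2 differed by at least 2-fold. It was higher with TGF-β, as were 3.94% of all 12375 kept genes at this threshold. None of the 8 was at least 2-fold lower, against 2.96% of all kept genes. The median log2 fold change of the 8 was 0.07, and that of all kept genes was -0.03. The members fell into 3 patterns: 1 gene that was low without TGF-β and clearly above background with it, a group of genes with strong and nearly equal signals, to which CD151 adds a moderate difference, and 3 genes at or near background.

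TSPAN2 is a tetraspanin best known from myelinating glia. Its brightest probe set read 91.1 in control cells and 738 with TGF-β. The control signal thus lay within 2-fold of background, and the TGF-β signal was well above it. This was an 8.10-fold difference, a log2 fold change of 3.02, and the gene ranked 34 of 12375 from the highest. Among the 500 kept probe sets nearest in brightness, log2 fold changes had a spread of 0.45, which describes other genes and does not stand in for replicate error. The other TSPAN2 probe sets read 25.2 in control cells and 131 in treated cells, and 24.1 and 107. All 3 probe sets of TSPAN2 were therefore higher with TGF-β, and the dimmer ones were above background only on that array. Because the control signals of the dimmer probe sets were at background, their folds are lower bounds, at least 2.85-fold and at least 2.33-fold in the same order. With 50 added to every signal the log2 fold change of the brightest TSPAN2 probe set was 2.48.

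The sequence upstream of TSPAN2 is shown beside that of TSPAN13, because the first gene had the largest difference of the 8 kept members, the second had almost none, and each has a single start site in the table. The 250 bases before the start are given 5′ to 3′ on the strand of the gene, from RefSeq on GRCh38.p14. The TSPAN2 stretch lies at chr1:115089504-115089753 on the minus strand and the TSPAN13 stretch at chr7:16753505-16753754 on the plus strand. Capitals mark the GC box, GGGCGG or its reverse CCGCCC, a letter match for Sp-family factors.
TSPAN2: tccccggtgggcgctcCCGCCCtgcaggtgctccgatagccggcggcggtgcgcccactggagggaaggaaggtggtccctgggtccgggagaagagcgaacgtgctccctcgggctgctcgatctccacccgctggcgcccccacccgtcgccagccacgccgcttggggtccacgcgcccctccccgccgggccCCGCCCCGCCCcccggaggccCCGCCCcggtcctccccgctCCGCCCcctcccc
TSPAN13: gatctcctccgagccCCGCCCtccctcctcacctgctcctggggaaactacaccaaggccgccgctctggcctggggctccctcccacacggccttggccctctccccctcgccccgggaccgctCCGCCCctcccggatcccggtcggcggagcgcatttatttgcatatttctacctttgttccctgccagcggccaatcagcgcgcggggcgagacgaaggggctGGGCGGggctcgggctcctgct
The TSPAN2 stretch was 79.2% G and C and held 5 GC boxes, and that of TSPAN13 was 70.0% G and C and held 3. Over all 35116 upstream stretches of this length the median was 58.0%, and 42.6% held a GC box. The short Smad box, GTCT or AGAC on the other strand, was found 0 times before TSPAN2 and 1 time before TSPAN13, and 77.5% of all stretches held at least 1. The longer CAGACA, whose reverse is TGTCTG and which contains the Smad box, was in neither, and 13.6% of all stretches held it. The AP-1 motif TGACTCA, whose reverse is TGAGTCA, was also in neither, and 4.20% of all stretches held it. Neighbouring GC boxes may overlap by a base. These are matches of letters in a short window and say nothing about binding. Upstream sequences were found for 7 of the 10 members, and those of TSPAN3, CD81 and CD151 were not shown or searched. Among the other members searched, CD9 held 0 to 6 GC boxes over its 4 stretches, CD82 held 4 and TSPAN1 held 0. CD63 held 0 to 3 GC boxes over its 8 stretches, and TSPAN8 0 or 1 over its 2. No Smad box was found before TSPAN1 or TSPAN8, CD82 held 2, and the CD9 stretches held 0 to 3. Each of the 8 CD63 stretches held 1 to 7 Smad boxes, 3 of them held CAGACA and 1 held the AP-1 motif. CAGACA and the AP-1 motif were found before no other member searched. Whether these counts relate to the signals was not tested.

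**Figure D1:**
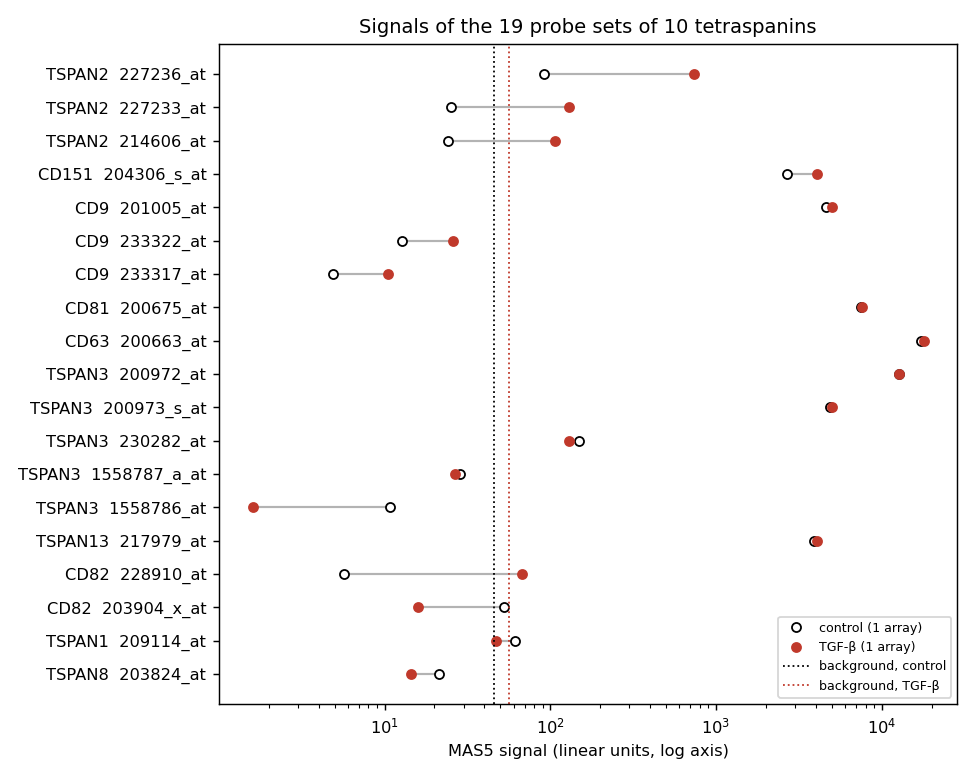
MAS5 signals of the 19 probe sets of the 10 tetraspanins (rows) on a log axis, with open points for the control array and red points for the TGF-β array. Dotted lines mark background, 45.8 for the control and 56.6 for TGF-β. All 3 TSPAN2 probe sets are higher with TGF-β, and the dimmer ones cross background, whereas the points of CD9, CD63, CD81, TSPAN3 and TSPAN13 above background nearly coincide.

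The vesicle-associated members CD9, CD63 and CD81 had strong signals that hardly differed. CD9, a partner of integrins and of the precursor of heparin-binding EGF, read 4603 without TGF-β and 5012 with it, a 1.09-fold difference. CD81, which associates with immunoglobulin-domain proteins at the cell surface, read 7453 and 7550. CD63, a tetraspanin of late endosomes and lysosomes, read 17121 and 17933. For each of these 3 vesicle markers the log2 fold change was smaller than the spread among equally bright probe sets, which was 0.22 for CD9, 0.18 for CD81 and 0.13 for CD63.

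TSPAN3, a widely expressed member, read 12771 without TGF-β and 12642 with it on its brightest probe set, and the next brightest read 4885 and 4999. The dimmest TSPAN3 probe set above background read 148 and 130. TSPAN13, also named NET-6, read 3882 and 4074. The signals of both genes were thus alike on the 2 arrays. On that dim TSPAN3 probe set the log2 fold change was -0.19, within the spread of 0.49 among equally bright probe sets. In all, 5 of the 8 kept members, CD9, CD63, CD81, TSPAN3 and TSPAN13, lay within 1.1-fold, a limit chosen after their values were seen. Of all kept genes 32.6% lay within 1.1-fold, and of the 1751 genes with a mean signal of at least 3978, as in these 5, the share was 49.2%. The sign of these small differences turned for CD63 with quantile scaling, for CD81 with quantile or loess scaling and for TSPAN3 with equal medians. Over all settings the log2 fold change ranged from -0.02 to 0.12 for CD63, from -0.02 to 0.07 for CD81 and from -0.19 to 0.03 for TSPAN3.

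CD151 anchors the laminin-binding integrins in tetraspanin complexes. Its only probe set read 2671 in control cells and 4062 with TGF-β. The TGF-β signal was 1.52-fold higher, a log2 fold change of 0.60, against a spread of 0.21 among equally bright probe sets. This lies below the 2-fold threshold. At 1.5-fold, a threshold added after the values were seen, 9.16% of all kept genes were higher and 9.08% were lower, and 2 of the 8 kept members, TSPAN2 and CD151, were higher. The log2 fold change of CD151 lay between 0.60 and 0.65 in every setting that gave a value. The name of this probe set marks it as able to bind more than 1 transcript, and no other probe set was annotated to CD151 alone.

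TSPAN1, TSPAN8 and CD82 were too dim for a usable comparison. TSPAN8, which is known from carcinomas of the digestive tract, read 21.2 without TGF-β and 14.5 with it, below background on both arrays. TSPAN1, known from secretory epithelia, read 61.2 in control cells, just above background, and 46.7 with TGF-β, below it, at least 1.08-fold lower. CD82, also named KAI1 and described as a suppressor of metastasis, had probe sets that pointed in opposite directions. The first read 5.72 in control cells and 67.7 with TGF-β, at least 1.48-fold higher, and the other read 52.9 and 15.9. Neither CD82 probe set reached the mean signal required, and both stayed close to background where they exceeded it. Without the filter on dim signals CD82 counted as higher on the first of them. Further probe sets of members whose main probe set was bright also lay below background on both arrays. These were a pair of CD9 probe sets, with signals of 4.89 to 25.8, and a pair of TSPAN3 probe sets, with signals of 1.60 to 28.5, and no fold is given for them.

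**Figure D2:**
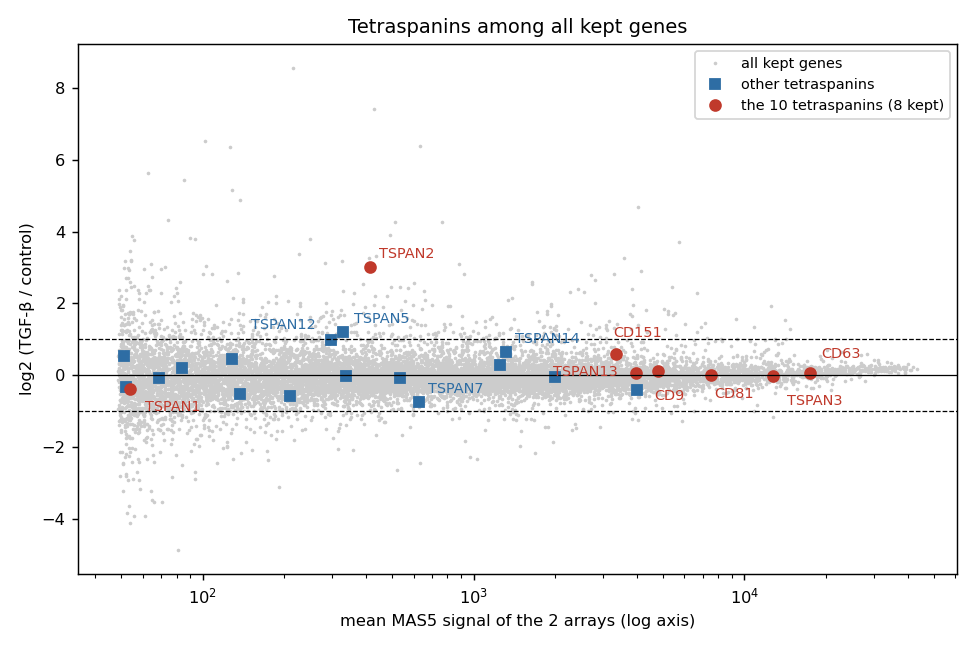
Log2 fold change (TGF-β over control, y axis) against the mean MAS5 signal of the 2 arrays (log x axis) for 12375 kept genes (grey), 16 kept other tetraspanins (blue squares) and 8 of the 10 tetraspanins (red). Dashed lines mark 2-fold. TSPAN2 stands at 3.02, CD151 at 0.60, and the brightest members lie near 0.

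The remaining tetraspanins of the human genome were read from the same arrays. Probe sets were found for 22 of the other 23 genes, and 16 of these were kept. Only TSPAN5 was at least 2-fold higher and none was at least 2-fold lower, against 3.94% and 2.96% of all kept genes. The median log2 fold change of the 16 was -0.04. Members of the TspanC8 group, which escort the sheddase ADAM10 to the cell surface, were unequal. TSPAN5 read 199 without TGF-β and 458 with it on the brightest probe set, a 2.31-fold difference. Its other probe sets read 222 and 289, and 170 and 289. All 3 TSPAN5 probe sets were higher with TGF-β, but the median over them was a log2 fold change of 0.77, which is under 2-fold.

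TSPAN14, another TspanC8 member, read 1027 without TGF-β and 1600 with it on one probe set, and 936 and 1424 on the other, which are 1.56-fold and 1.52-fold differences. TSPAN15 read 340 and 334, TSPAN17 549 and 520, and TSPAN33 77.9 and 89.2. TSPAN10 was below background. ADAM10 itself read 7253 in control cells and 8162 with TGF-β, 1.13-fold higher. Within this group TSPAN5 and TSPAN14 thus had higher signals with TGF-β on all of their probe sets, while the other kept members were close to equal.

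TSPAN12, a co-receptor component for Norrin and the receptor FZD4, lay at the threshold. It read 200 without TGF-β and 393 with it on its brightest probe set, which is 1.96-fold, and 158 and 330 on the next, which is 2.09-fold. The dimmest went from background to 84.9, at least 1.85-fold higher. Scaling to equal medians or by loess, or taking the probe set of largest change or the median over probe sets, put TSPAN12 at or above 2-fold. FZD4 read 121 and 130. Among the kept genes of the family, by brightest probe set, TSPAN7 had the lowest log2 fold change, -0.74, with 786 in control cells and 470 with TGF-β. TSPAN4 was lower on both of its probe sets, from 4581 to 3442 and from 3170 to 2548. The probe sets of TSPAN9 disagreed, since one read 251 and 169 but the other 89.4 and 118. The leukocyte tetraspanin CD37 stayed below background on both arrays, and CD53 read 108 and 149 on its only probe set above background.

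**Figure D3:**
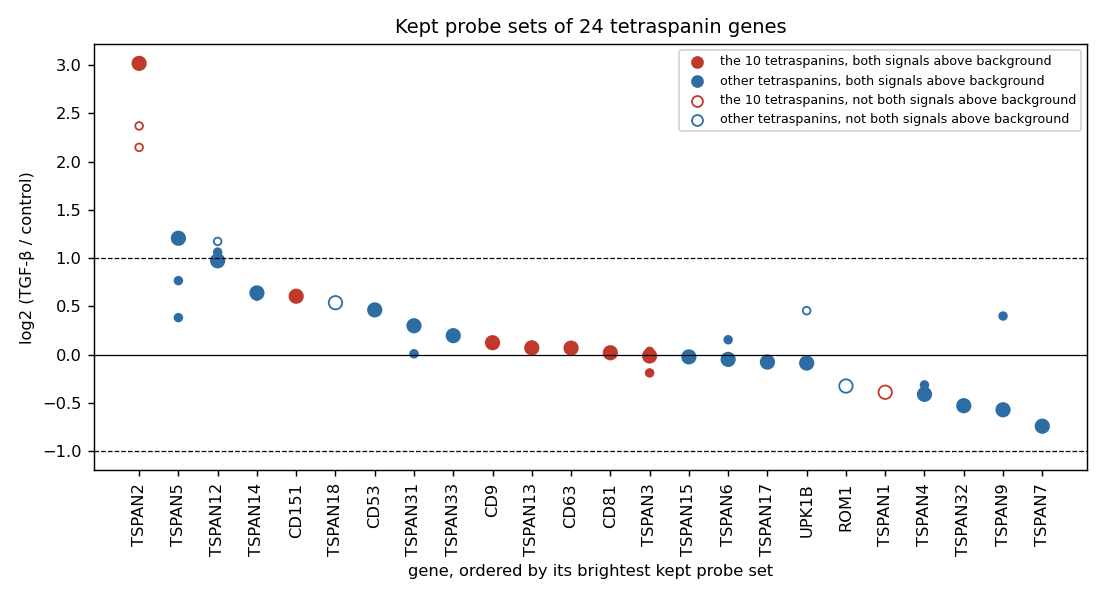
Log2 fold change (TGF-β over control) of each kept probe set of 24 tetraspanin genes, ordered by the value of the brightest probe set of each gene, which is drawn larger. Red marks the 10 tetraspanins and blue the other genes, open points have at least 1 signal at background, and dashed lines mark 2-fold. TSPAN2 lies apart at 3.02 and TSPAN5 follows at 1.21, while TSPAN7 is the lowest kept gene at -0.74.

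Proteins that tetraspanins assemble with were read from a list of 44 genes, made of integrins, immunoglobulin-domain and IFITM proteins and other membrane proteins, of which 35 were kept. Of these 6 were at least 2-fold higher and 1 was at least 2-fold lower, against 3.94% and 2.96% of all kept genes, and their median log2 fold change was 0.28. The list was drawn up with earlier results of these data known. Its counts, and those for its parts below, therefore describe these genes and not tetraspanin partners at large. The laminin-binding integrins, the main partners of CD151, contributed no gene at least 2-fold higher or lower. ITGB1, the common beta chain, read 26429 in control cells and 32273 in treated cells, and ITGA6 read 2504 and 2460. ITGB4, the partner chain of ITGA6 in hemidesmosomes, read 597 and 927, a 1.55-fold difference on its brightest probe set. Its next brightest read 79.4 and 86.1. The other ITGB4 probe sets were dim and pointed the other way, at 68.4 and 10.5, 48.5 and 27.1, and 56.5 and 3.48. Their control signals were above background and their TGF-β signals below it.

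Of 8 kept genes for other integrin chains, 3 were at least 2-fold higher, namely ITGA2, ITGAV and ITGA5, and 1, ITGB8, was lower, against 3.94% and 2.96% of all kept genes. ITGA2, a collagen-binding alpha chain, read 781 in control cells and 3095 with TGF-β, a 3.96-fold difference, and its dimmer probe set read 198 and 604. ITGAV, the alpha chain of several vitronectin and latent TGF-β receptors, read 8522 and 17297, which is 2.03-fold, and ITGA5, the fibronectin receptor chain, read 252 and 509, which is 2.02-fold. None of the other collagen-binding chains was 2-fold higher, since ITGA1 read 160 and 194, ITGA11 read 59.2 and 81.5, and ITGA10 read 110 and 58.1, which is 1.90-fold lower. ITGAV and ITGA5 stood at the threshold, since ITGAV was as low as 0.97 on the log2 scale after quantile or loess scaling and ITGA5 at 0.89 with 50 added to every signal. ITGB8 was lower, with 97.4 without TGF-β and a TGF-β signal at background, at least 1.72-fold lower, and it did not reach 2-fold when signals under background were raised to it. The spread among the nearest kept probe sets was 1.59 on the log2 scale. It gives no yardstick here, because at this brightness the filter kept only probe sets with unequal signals. The dimmer probe sets of ITGB8 lay below background on both arrays.

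Of 16 kept genes for other membrane proteins, 3 were at least 2-fold higher, namely HBEGF, ADGRG1 and SDC4, and 0 were lower, against 3.94% and 2.96% of all kept genes. HBEGF, the heparin-binding EGF precursor whose complex with CD9 is well known, read 238 in control cells and 839 with TGF-β, 3.52-fold higher, while CD9 was at 1.09-fold. ADGRG1, an adhesion receptor formerly named GPR56 that associates with CD9 and CD81, read 509 and 2161, 4.24-fold higher. Its dimmer probe set went from background to 63.0. SDC4, a heparan sulfate proteoglycan of focal adhesions, read 1479 and 3910, 2.64-fold higher. CD59 lay just under the threshold, at 8713 and 17150 on its brightest probe set, 1.97-fold higher. Its other probe sets were 1.95-fold, 1.58-fold, 2.18-fold and 2.27-fold higher. Of 6 kept genes for immunoglobulin-domain partners and IFITM proteins, 0 differed by at least 2-fold, where shares of 3.94% higher and 2.96% lower over all kept genes leave few or no calls among so few genes. PTGFRN read 1457 and 1905 on its brightest probe set but 814 and 732 on the other. IGSF8 read 112 and 72.2, and IGSF3 2175 and 3019. IFITM2 and IFITM3, antiviral proteins found in the same membrane patches, read 3550 and 3133, and 5671 and 5126.

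**Figure D4:**
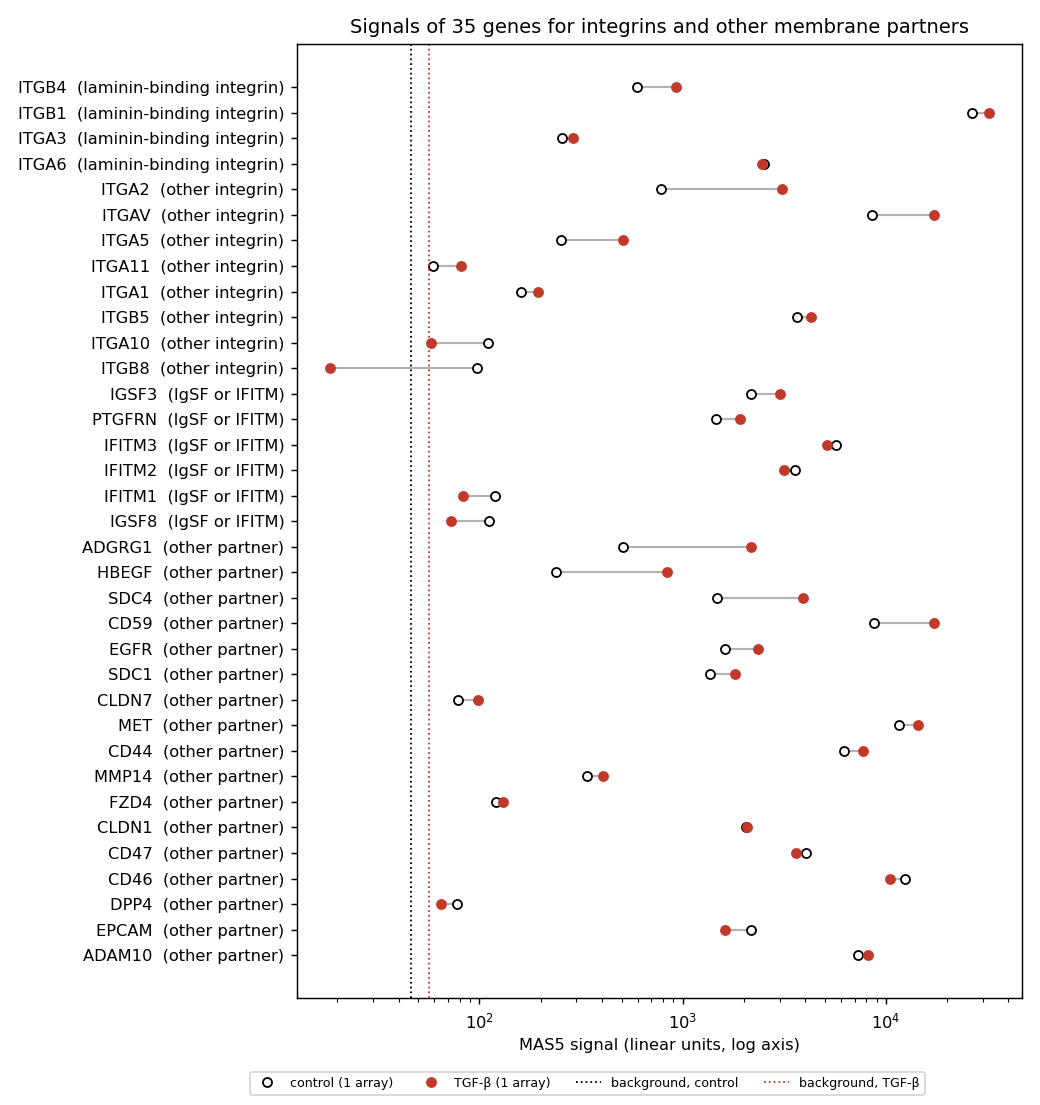
MAS5 signals (log x axis) of 35 genes for integrins and other membrane partners of tetraspanins, by brightest kept probe set, without TGF-β (open) and with TGF-β (red), 1 array each, with dotted lines at background. ITGA2, ITGAV, ITGA5, ADGRG1, HBEGF and SDC4 are displaced to the right with TGF-β, and ITGB8 lies below background with TGF-β.

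Genes for vesicle cargo and sorting were read beside the vesicle markers CD9, CD63 and CD81. Of 15 measured, 14 were kept, 0 differed by at least 2-fold in either direction, against 3.94% higher and 2.96% lower of all kept genes, and log2 fold changes lay between -0.55 and 0.56. SDCBP, which encodes syntenin, an adaptor between CD63, syndecans and the sorting machinery, read 12564 without TGF-β and 12035 with it. LAMP1, a lysosomal membrane protein, read 8505 and 8306. RAB27B, a GTPase of secretory vesicles, read 9999 and 7108, which is 1.41-fold lower. Its log2 fold change of -0.49 stood against a spread of 0.19 among equally bright probe sets, and its dimmer probe sets were also lower. By sign, 6 of the 14 kept vesicle genes were higher and 8 were lower. Palmitoylation of tetraspanins is carried out by enzymes such as ZDHHC2, which read 3289 and 3688. The others on that list, ZDHHC4 and ZDHHC18, were 1.07-fold and 1.31-fold higher. In the L6 family, which has the same topology but is not related to tetraspanins in sequence, TM4SF20, chosen by the study on these arrays, was lower, with 1715 in control cells and 339 with TGF-β.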

How the data were processed

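RNA from A549 cells without and with TGF-β was hybridized to 1 Affymetrix array each. The authors deposited intensity values that had not been log-transformed, made with MAS5, named in the submitters' processing notes without a version. The mean without the highest and lowest 2% of signals was 500.1 on each array, so both had been scaled to 1 target, and signals were used as deposited. Scaling sets the arrays equal on average, and MAS5 ratios are imprecise near background.

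After control probes were left out, 54613 probe sets remained. A single symbol was available for 41091 of them, several for 1801, and 11721 were unlisted. Symbols were updated through RefSeq gene identifiers of GRCh38.p14. Filtering left 27307 probe sets and 12375 genes. Medians, ratios and plots were made with Python 3.11.15, numpy 2.4.6, pandas 2.3.3, statsmodels 0.14.6 and matplotlib 3.10.9. Calling was checked on simulated data whose planted differences were well past 2-fold, so the check does not bear on genes near that threshold. Spread among equally bright probe sets is the median absolute deviation of log2 fold changes in the 500 nearest, scaled to a normal SD. Groups came from the treatment label, and no test was run with 1 array per condition. The genes to be named were all 10 members and, in each list, those changed at least 2-fold or otherwise the 3 brightest; others named were chosen after their values were seen. The members and lists were chosen with earlier results of these data known. Alternatives were no filter, a filter at the 75 percentile, a floor at background, an offset of 50, median, quantile and loess scaling (span 0.3), other choices of probe set and leaving out probe sets marked as shared.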

Additional observations from a re-analysis of the deposited data

How the results depend on the processing

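No paired analysis was possible because each group had 1 array, and for the same reason no array could be left out. TSPAN2 was the only one of the 10 tetraspanins at least 2-fold higher in every setting but these: without the filter on dim signals there were 2, the other being CD82, and at a threshold of 1.5-fold, added after the values were seen, there were 2, the other being CD151. None was at least 2-fold lower in any setting. The log2 fold change of TSPAN2, 3.02, was 2.48 with an offset of 50 and 2.37 as the median over probe sets, where 2.37 is the ratio of a probe set whose control signal is at background and so is no measured fold. Of the other tetraspanins at least 2-fold higher, 1 became 2 without the filter, by equal medians, by loess and by the most changed probe set, 0 under the stricter filter at the 75 percentile, and 3 at 1.5-fold. As the median over probe sets it was TSPAN12 in place of TSPAN5. Of those lower, 0 became 2 without the filter and 1 at 1.5-fold. The partner genes at least 2-fold higher, 6, ranged over the settings from 5, as with the offset, to 9 without the filter. CD59 was among them with equal medians, by the most changed probe set and without probe sets marked as shared. The partner genes lower, 1, became 2 without the filter, 0 under that stricter filter and 0 under the floor at background, and 3 at 1.5-fold. Filters, floors, offsets and thresholds change dim signals or counts by construction. For the scaling and probe set choices the cause was not tested. Over all kept genes, 487 were higher and 366 lower, compared with 2110 and 2395 when dim genes were not filtered, 197 and 63 for a filter at the 75 percentile, 295 and 134 after the offset, 418 and 204 after the floor, and 675 and 596 by the most changed probe set of each gene. Background limits what can be said of TSPAN1, TSPAN8 and CD82, and of the control level of TSPAN2.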
